A study of Mus musculus with 2 samples.

Results

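The CXC chemokine ligands described here are 10 mouse genes, *Cxcl1*, *Cxcl2*, *Cxcl3*, *Cxcl5*, *Cxcl9*, *Cxcl10*, *Cxcl11*, *Cxcl12*, *Cxcl14* and *Cxcl16*, taken by gene name from the 54532 gene identifiers of the count table and by no measured value. Their transcripts were measured by RNA-seq in M1-like bone marrow derived macrophages (BMDMs) of male mice. Each genotype is represented by 1 library, made from RNA of 3 mice that was pooled before sequencing, so no difference has a replicate check and no p-value is given. The question was how loss of folate receptor β (FRβ, *Folr2*) changes gene expression in activated macrophages. WT cells came from C57BL/6 mice. FRβ KO cells came from mice with a neomycin resistance gene inserted into *Folr2*, an allele brought from the SWV background onto C57BL/6 by crossing. The age of the marrow donors is not given. Both groups were grown for 7 days in RPMI medium with serum and M-CSF (20 ng/mL) and then held for 24 hours in IFNγ (20 ng/mL) with LPS (1 ng/mL), so both carry the same stimulus and no unstimulated group was compared. The labels give the medium as regular RPMI, whereas the methods allow regular or folate-deficient medium.

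The WT library held 18871271 counts and the FRβ KO library 19742619. *Folr2* itself had 0 and 2 counts, at or under the 3 counts that a count of 0 allows, so the targeted gene did not check the labels. All 8 macrophage markers were measured, from *Fcgr1* (2314 and 1950 counts) to *Lyz2* (304923 and 275618). The 7 M1-like markers were measured as well and did not move one way. Their intervals lay above 1 for 3 (15.0% of all genes tested), below it for 3 (16.6%) and held it for 1. *Il12b*, encoding a subunit of IL-12, was the one past 1.5-fold (253 and 533 counts, ratio 1.97, 1.69 to 2.29), while *Tnf* had 1447 and 1101 counts (ratio 0.710, 0.656 to 0.769) and *Nos2* 58376 and 59486 (ratio 0.952, 0.941 to 0.962). The 8 neutrophil markers summed to 36.3 CPM (read counts as a rate of the scaled library size) in WT but to 21.3 CPM in FRβ KO. Most of that sum was *S100a8* (652 and 407 counts), and the defining genes *Ly6g* (0 and 3) and *Elane* (1 and 0) were at or near 0. Sums for fibroblast, endothelial, dendritic, B, and T and NK cell markers were each at most 27.5 CPM in both libraries. The part of these markers in the results below was not tested. In a bulk sample fewer cells of a type and less RNA per cell cannot be told apart.

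CXC chemokines are small secreted proteins that guide leukocytes by binding G protein-coupled receptors. Those with a Glu-Leu-Arg motif before the first cysteines, such as CXCL1, CXCL2, CXCL3 and CXCL5, act on CXCR2 and draw neutrophils, and in macrophages their genes are induced by LPS through NF-κB. CXCL9, CXCL10 and CXCL11 lack that motif, are induced by interferons and draw activated T cells and NK cells through CXCR3. CXCL12 and CXCL14 are made mostly by stromal and epithelial cells, and CXCL16 is a transmembrane chemokine that also takes up oxidised lipoprotein and is shed by ADAM10 to attract CXCR6-bearing cells.

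The M1-like macrophages of both genotypes held mainly *Cxcl16* and *Cxcl9* transcripts. Levels of different genes are compared as CPM per kilobase of merged exons. For *Cxcl1*, *Cxcl2*, *Cxcl3* and *Cxcl10* the merged exons cover the whole gene span (1875, 2068, 3498 and 2252 bases), which is not so for *Cxcl9* or *Cxcl16*. Levels of these genes may thus be understated by unequal amounts, and the order below depends on the lengths used. *Cxcl16* stood at 171 in WT and 187 in FRβ KO, and *Cxcl9* at 147 and 102. *Cxcl3* followed at 21.5 and 23.0. The other genes lay far below. *Cxcl10* had 6.86 and 5.58, *Cxcl2* 5.99 and 6.88, and *Cxcl14* 2.47 and 1.67. *Cxcl1*, *Cxcl5*, *Cxcl11* and *Cxcl12* were each at most 0.686 in both libraries. Within the WT library, *Cxcl10* and *Cxcl2* were not separated by counting error (ratio of levels 1.14, 95% interval 0.960 to 1.37). In the FRβ KO library these genes stood in the opposite order (*Cxcl2* over *Cxcl10*, 1.23, 1.04 to 1.47). *Cxcl1* and *Cxcl5* could not be separated in either library, nor *Cxcl11* and *Cxcl12* in WT, nor *Cxcl5* and *Cxcl11* in FRβ KO. All intervals here come from read counts, with no molecular identifiers described. They cover counting error only, not the variation between mice or the choice of gene length.

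**Figure D1:**
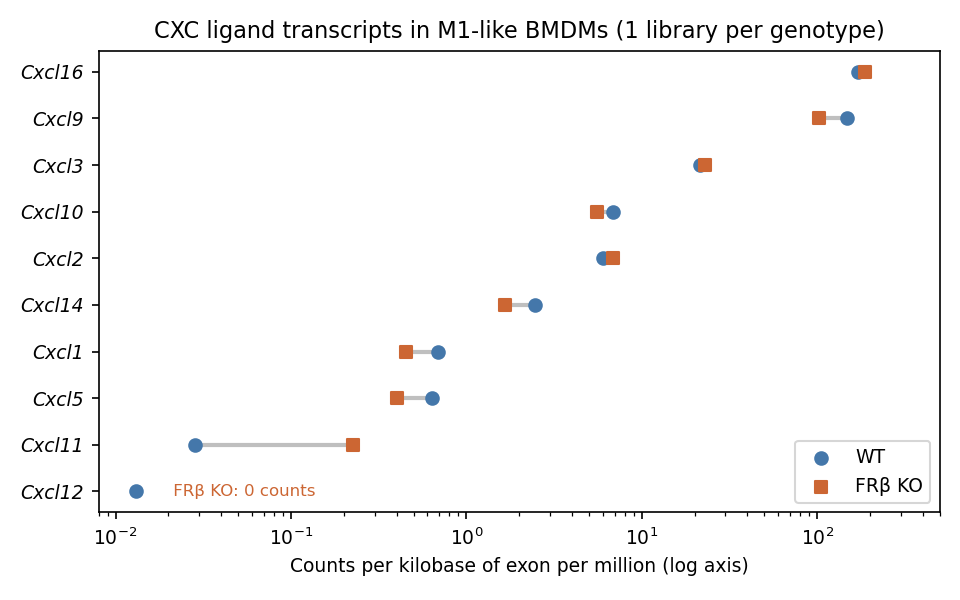
Level of each CXC ligand gene in the WT library (circles) and the FRβ KO library (squares), in CPM per kilobase of exon on a log axis, 1 pooled library per genotype. On the merged exon lengths used, *Cxcl16* (171 and 187) and *Cxcl9* (147 and 102) lie far above the other genes, and *Cxcl12* had no count in FRβ KO.

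Between the genotypes, *Cxcl9* was lower in FRβ KO and *Cxcl16* slightly higher. Ratios are KO over WT, from counts on library sizes scaled by TMM (trimmed mean of M values), and carry an exact 95% interval. Of the 10 genes 9 had at least 10 counts over both libraries. A gene was counted as past the limit when its whole interval lay beyond 1.5-fold. This held for 1 of the 9 in the higher direction, *Cxcl11*, against 0.959% of the 14489 genes tested, and for 0 of the 9 in the lower direction, against 1.07%. With 2 WT and 17 FRβ KO counts, *Cxcl11* met the filter only through the library in which it was higher, so its call carries little weight. The interval lay below 1 for *Cxcl9*, *Cxcl10* and *Cxcl14*, which is 3 of 9 against 16.6% of all genes tested. It lay above 1 for *Cxcl11* and *Cxcl16*, 2 of 9 against 15.0%. More reads narrow an interval, and *Cxcl3*, *Cxcl9* and *Cxcl16* had at least 1000 counts over both libraries. Of the 5846 genes at that depth 23.4% had an interval below 1 and 21.8% one above it. By point ratio 5 genes were lower and 4 higher. The median log2 KO/WT ratio of the 9 genes was -0.30, beside -0.0028 for all genes tested. Without the genes under 50 counts over both libraries that median was -0.10.

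**Figure D2:**
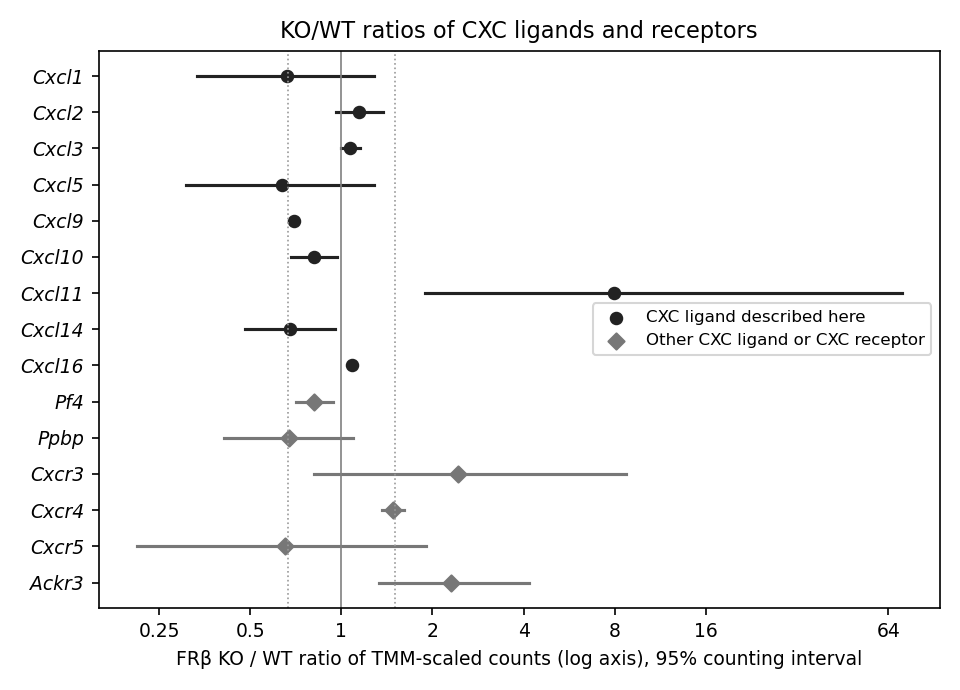
FRβ KO/WT ratio of TMM-scaled counts (log axis) for the CXC ligand genes (black circles) and for other CXC ligands and receptors (grey diamonds) with at least 10 counts over both libraries. Bars are exact 95% counting intervals, the solid line marks 1 and the dotted lines 1.5-fold, and among the ligands only the interval of *Cxcl11* (1.88 to 70.8) lies wholly past a dotted line.

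Of the CXCR3 ligands, *Cxcl9* and *Cxcl10* were lower in FRβ KO and *Cxcl11* was higher, on few reads. *Cxcl9* (ENSMUSG00000029417), which encodes the monokine induced by IFNγ, lies at chr5:92321347-92328079 of mm10 on the minus strand. It had 8274 WT and 6168 FRβ KO counts. Its level was 444 and 309 CPM, a KO/WT ratio of 0.696 (95% interval 0.673 to 0.720). The whole interval lies below 1 but short of the 1.5-fold limit. *Cxcl10* (ENSMUSG00000034855), encoding the interferon-induced chemokine IP-10, lies next to it at chr5:92346638-92348889 and had 288 and 251 counts (ratio 0.814, 0.684 to 0.967). It too was lower in FRβ KO, by a margin close to its counting error. Relative to each other the pair was not separated by counting error, since the *Cxcl9* ratio over the *Cxcl10* ratio was 0.855 (0.720 to 1.02). In both libraries *Cxcl9* was far more abundant than *Cxcl10* per length.

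*Cxcl11* (ENSMUSG00000060183) had the largest ratio of the family and some of the fewest reads. It lies at chr5:92359544-92365485 and is annotated as a polymorphic pseudogene, a gene whose reading frame is intact in some strains and not in others. Whether the frame is intact in the cells of either genotype was not tested. Its reads are therefore a measure of transcript and not of CXCL11 protein. It had 2 WT and 17 FRβ KO counts (ratio 7.94, 1.88 to 70.8), that is 0.107 and 0.851 CPM. The WT value was under the 0.161 CPM that a count of 0 allows in that library. The gene did not pass the limit with a 99% interval, with a 2-fold limit or with a filter of 50 counts. Its transcripts share stretches of at least 100 bp at 80% identity or more with those of 415 other genes, and 1582 bp of them overlap the pseudogene *Gm2673* on the opposite strand, which had 0 counts in both libraries. How reads matching several genes were counted is not given, so the 17 reads are an uncertain measure. Its direction was opposite to that of *Cxcl9* and *Cxcl10*, and its ratio differed from theirs beyond counting error (*Cxcl9* over *Cxcl11*, 0.0877, 0.0203 to 0.380).

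With TMM scaling none of the 4 neutrophil-attracting ligands with the Glu-Leu-Arg motif had an interval that left out 1. That of *Cxcl3* only just held 1, and its ratio was 1.10 when libraries were scaled by total counts. That shift is larger than the gap between 1 and the lower end, so under total counts its interval would leave out 1. *Cxcl3* (ENSMUSG00000029379, chr5:90786103-90789600) led this group with 1403 WT and 1608 FRβ KO counts (ratio 1.07, 0.996 to 1.15). *Cxcl2* (ENSMUSG00000058427, chr5:90903871-90905938), encoding MIP-2, had 231 and 284 counts (ratio 1.15, 0.962 to 1.37). Both of these had a point ratio above 1. *Cxcl1* (ENSMUSG00000029380, chr5:90891241-90893115), encoding KC, had 24 and 17 counts (ratio 0.661, 0.334 to 1.28). *Cxcl5* (ENSMUSG00000029371, chr5:90759360-90761624), encoding LIX, had 22 and 15 counts (ratio 0.637, 0.307 to 1.28). The last 2 genes rest on so few reads that neither equal levels nor a 2-fold lower level in FRβ KO lies outside their intervals. Transcripts of *Cxcl2* and *Cxcl3* are 90.7% identical over 550 bp, below the 95% used here to mark near-identical copies. Summed over the 4 genes, the WT level was 90.1 CPM and the FRβ KO level 96.3 CPM (ratio 1.07, 1.001 to 1.14). The lower end of that interval lay just above 1.

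The promoters of *Cxcl1*, *Cxcl2* and *Cxcl3* share an element that the *Cxcl9* window does not hold. RefSeq promoter windows (GRCm38.p6, 250 bases before to 50 after the start) were matched for 7 of the 10 genes and were not matched for *Cxcl5*, *Cxcl11* and *Cxcl16*. They were searched on both strands for the NF-κB consensus, the interferon-stimulated response element (ISRE, GAAANNGAAA) and the gamma-activated site (GAS, TTCNNNGAA). Of 32851 such windows 4.51% held the NF-κB consensus, 3.44% the ISRE and 8.30% the GAS. The stretches below are shown because the 3 attractants with a window carry the same 11 bases, and because *Cxcl10*, unlike *Cxcl9*, carries 2 matches to the NF-κB consensus and 1 to the ISRE. Capitals mark the matches, and each stretch runs 5′ to 3′ along the gene's strand. The first 3 lie on the plus strand at chr5:90891115-90891214, chr5:90903769-90903868 and chr5:90785971-90786070, and the last 2 on the minus strand at chr5:92348980-92349109 and chr5:92328110-92328209.
Cxcl1: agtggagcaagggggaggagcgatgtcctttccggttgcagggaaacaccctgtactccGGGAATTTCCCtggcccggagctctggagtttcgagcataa
Cxcl2: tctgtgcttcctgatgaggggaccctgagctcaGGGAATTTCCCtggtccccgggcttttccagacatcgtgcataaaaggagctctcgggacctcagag
Cxcl3: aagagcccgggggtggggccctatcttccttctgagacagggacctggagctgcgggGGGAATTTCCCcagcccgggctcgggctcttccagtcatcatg
Cxcl10: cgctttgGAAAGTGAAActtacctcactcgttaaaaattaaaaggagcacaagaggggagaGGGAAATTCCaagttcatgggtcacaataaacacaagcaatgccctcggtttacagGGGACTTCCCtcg
Cxcl9: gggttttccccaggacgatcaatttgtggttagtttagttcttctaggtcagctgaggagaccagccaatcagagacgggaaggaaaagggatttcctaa

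The shared GGGAATTTCCC reads the same on both strands, apart from its central base, so the consensus matched on each strand with an overlap and was taken as 1 site. It begins 71 bases before the start of *Cxcl1*, 97 before that of *Cxcl2* and 73 before that of *Cxcl3*. In *Cxcl10* the ISRE match begins 213 bases before the start and the NF-κB matches 159 and 103 bases before it. The *Cxcl9* window held none of these 3 motifs, which says only that these letters are not within it. Only full matches were sought, and the *Cxcl9* stretch does hold letters that miss the NF-κB consensus by 1 base. *Cxcl12* had none either, and *Cxcl14* had 1 ISRE and 1 GAS match. A match is a description of letters, not a bound site.

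*Cxcl16* (ENSMUSG00000018920), on chr11:70453983-70459984, was the most abundant CXC ligand gene in both libraries. It had 9661 WT and 11259 FRβ KO counts, or 518 and 564 CPM (ratio 1.09, 1.06 to 1.12). The difference is small beside 1.5-fold and its counting error is small as well. Its transcripts share a stretch of 552 bp with those of *Zmynd15*, which overlaps it on the opposite strand. *Zmynd15* had 233 and 338 counts, and the strand setting of the counting is not given. Against *Cxcl16*, *Cxcl9* was lower in FRβ KO whatever the scaling, with a ratio of the KO/WT ratios of 0.640 (0.613 to 0.668). Of 36 pairs formed by the 9 genes, 17 had such a ratio whose interval did not hold 1 and 19 had one that did, and 8 of the 17 pairs include *Cxcl11*.

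*Cxcl14* and *Cxcl12*, the ligands made mostly outside the macrophage lineage, were low. *Cxcl14* (ENSMUSG00000021508, chr13:56288643-56296551) had 84 WT and 61 FRβ KO counts (ratio 0.678, 0.479 to 0.954). *Cxcl12* (ENSMUSG00000061353, chr6:117168535-117181367), encoding stromal cell-derived factor 1, had 2 and 0 counts, under the limit of 3 counts, so no ratio is given. The summed fibroblast and stromal markers came to 5.25 CPM (WT) and 4.91 CPM (FRβ KO).

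As a share of the reads of the 10 genes, *Cxcl9* made up 41.4% in WT (exact 95% interval 40.7% to 42.1%) and 31.3% in FRβ KO (30.7% to 32.0%). *Cxcl16* made up 48.3% (47.6% to 49.0%) and 57.2% (56.5% to 57.9%), and *Cxcl3* 7.02% and 8.17%. The summed level of the 10 genes came to 1072 CPM (WT) and 985 CPM (FRβ KO), a lower sum (ratio 0.919, 0.901 to 0.938). That direction rested on *Cxcl9*. Without it the sums were 628 CPM (WT) and 676 CPM (FRβ KO), in the opposite order (ratio 1.08, 1.05 to 1.10).

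**Figure D3:**
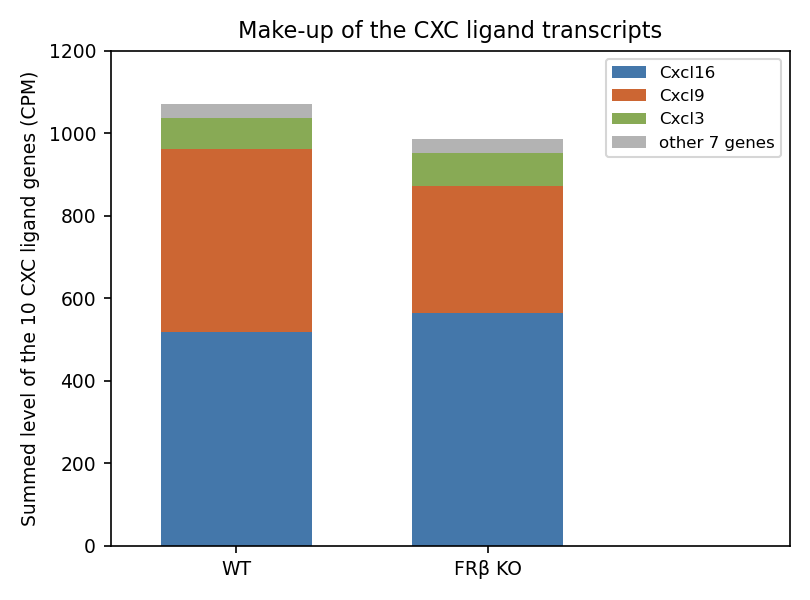
Summed level of the 10 CXC ligand genes in CPM for each library, stacked by gene, with the 7 genes other than *Cxcl16*, *Cxcl9* and *Cxcl3* together in grey. The *Cxcl9* part is 444 CPM in WT and 309 in FRβ KO, and the *Cxcl16* part 518 and 564.

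Of 5 further CXC ligands, *Pf4* (CXCL4, best known from platelets) and *Ppbp* (CXCL7) were measured and *Cxcl13*, *Cxcl15* and *Cxcl17* had 0 counts in both libraries. *Pf4* had 449 WT and 392 FRβ KO counts (ratio 0.815, 0.710 to 0.936). Per kilobase of merged exons *Pf4* stood at 33.4 and 27.2 CPM and *Cxcl3* at 21.5 and 23.0. That order rests on the lengths used, 721 bases for *Pf4* and 3498 for *Cxcl3*, the latter its whole gene span. By CPM alone *Pf4* was lower, at 24.1 and 19.6 against 75.2 and 80.5 for *Cxcl3*. *Ppbp* had 43 and 31 (ratio 0.673, 0.410 to 1.09). Both point ratios were below 1. Both genes also belong to the 5 megakaryocyte and platelet markers, which summed to 29.2 CPM (WT) and 23.6 CPM (FRβ KO). Of the other 3, *Itga2b* had 52 and 46 counts (ratio 0.826, 0.543 to 1.25), *Gp9* 0 and 2 and *Gp1bb* 0 and 0. Their part in the *Pf4* and *Ppbp* values was not tested.

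Of 8 CXC receptor genes 4 had at least 10 counts over both libraries, and 0 passed 1.5-fold in either direction. The shares of all genes tested were 0.959% higher and 1.07% lower. *Cxcr4*, the receptor of CXCL12, had 928 WT and 1471 FRβ KO counts (ratio 1.48, 1.36 to 1.61). *Ackr3*, a scavenging receptor for CXCL12 and CXCL11, had 19 and 47 (ratio 2.31, 1.33 to 4.17). These were the receptors with an interval above 1. *Cxcr3* had 5 and 13 counts and *Cxcr5* 10 and 7, and the intervals of their ratios held 1. *Cxcr1* (0 and 1), *Cxcr2* (0 and 3), *Cxcr6* (1 and 1) and *Ackr1* (0 and 0) had at most 3 counts in either library, so a difference in the receptors for the neutrophil attractants or for CXCL16 was not detectable at this depth.

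Of 8 proteases known to cleave or shed CXC ligands, 7 were tested and 0 passed 1.5-fold. Over all genes tested 0.959% passed it higher and 1.07% lower. *Adam10*, encoding the sheddase of CXCL16, had 2764 WT and 3511 FRβ KO counts (ratio 1.19, 1.13 to 1.25). *Mmp12*, the macrophage elastase, had 112853 and 100227 (ratio 0.829, 0.822 to 0.836). *Mmp14* had a ratio of 1.19 and *Mmp2* of 1.28, both with intervals above 1.

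On the LPS and NF-κB route 1 of 13 genes passed 1.5-fold, in the higher direction, against 0.959% of all genes tested. It was *Cd14*, the LPS co-receptor, which is also among the macrophage markers, with 6017 WT and 11218 FRβ KO counts (ratio 1.74, 1.69 to 1.80). *Nfkbiz*, encoding IκBζ, had 119 and 163 counts (ratio 1.28, 1.004 to 1.63). *Irak1* had a ratio of 1.07 and *Ly96*, encoding MD-2, one of 1.15 (0.936 to 1.43). The interval held 1 for 10 of the 13 genes, against 9916 of the 14489 genes tested, and the list's median log2 ratio was 0.04. All but *Ly96* and *Nfkbiz* had at least 1000 counts over both libraries. Among the 5846 genes at that depth 23.4% had an interval below 1 and 21.8% one above it, so fewer held 1 than among all genes tested. *Rela*, encoding the p65 subunit and chosen after its values were seen, had 3557 and 3863 counts (ratio 1.01, 0.969 to 1.06).

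On the interferon route 12 of 13 genes were tested, with 1 past 1.5-fold, in the lower direction, against 1.07% of all genes tested. *Socs1*, an IFNγ-induced inhibitor of JAK kinases, had 9454 WT and 6461 FRβ KO counts (ratio 0.638, 0.618 to 0.659). *Irf8*, a transcription factor of the myeloid lineage that IFNγ induces, had 15748 and 12268 (ratio 0.727, 0.710 to 0.745). *Jak2*, a kinase of the IFNγ receptor, had 3681 and 3147 (ratio 0.798, 0.761 to 0.837). These genes were lower in FRβ KO, as was *Cxcl9*, whereas the receptor gene *Ifngr1* had a ratio of 1.17 (1.08 to 1.27). The interval lay below 1 for 5 of the 12 genes, above 1 for 2 and held 1 for 5, with a median log2 ratio of -0.05. All 12 had at least 1000 counts over both libraries, and of the 5846 genes at that depth 23.4% had an interval below 1 and 21.8% one above it.

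Of 8 regulators of chemokine mRNA decay 0 passed 1.5-fold, beside 0.959% higher and 1.07% lower among all genes tested. *Zfp36*, encoding tristetraprolin, which binds AU-rich elements in mRNAs of cytokines and chemokines, had 2633 WT and 3312 FRβ KO counts (ratio 1.17, 1.12 to 1.24). *Rc3h1*, encoding roquin-1, had a ratio of 1.22 and *Zfp36l1* of 1.26. *Traf3ip2*, encoding an adaptor of IL-17 signalling, had a ratio of 1.15 with an interval that held 1 (0.954 to 1.39). Of the 8 intervals 3 lay above 1 (15.0% of all genes tested), 2 lay below it (16.6%) and 3 held it. Those below were of *Zfp36l2* (ratio 0.899, 0.879 to 0.919) and *Hnrnpd* (ratio 0.900, 0.840 to 0.964). Both were named after their values were seen.

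**Figure D4:**
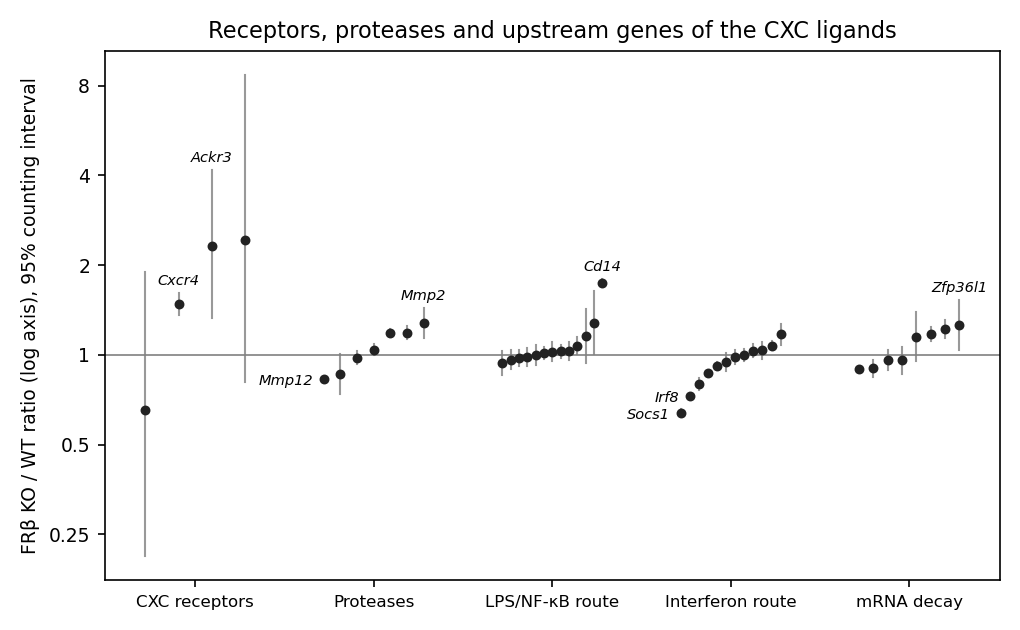
FRβ KO/WT ratio (log axis) of each tested CXC receptor, protease, LPS and NF-κB route, interferon route and mRNA decay gene, ordered by ratio within each list, with exact 95% counting intervals as bars. *Cd14* (1.74) and *Socs1* (0.638) are the genes of these lists whose whole interval lies past 1.5-fold.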

How the data were processed

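The deposited values were raw counts of reads per gene. According to the authors' methods, 150 bp paired-end reads were trimmed and filtered on quality by the sequencing provider, aligned to mm10 with HISAT2 and counted per gene by the provider. For the counting program, its annotation and its strand setting, and for FA_N in the sample names, no explanation was found: not given in the sources used here. No count column was left out.

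Symbols, positions and merged exon lengths came from GENCODE M21 (GRCm38, the mm10 assembly), which lacked 123 identifiers. TMM scaling (edgeR 4.0.16 under R 4.3.3) was applied to the library totals, giving an FRβ KO size 1.07 times the WT size. KO/WT ratios carry exact Clopper-Pearson 95% intervals (scipy 1.17.1). The procedure was tested on simulated counts with counting error only, so that test cannot speak to variation between mice or libraries. Ratios of 2 ratios carry intervals from the normal approximation on the log scale. Medians used a prior count of 2. The floor behind a value of 0 was set at 3 counts per library, 0.161 CPM (WT) or 0.150 CPM (FRβ KO). Genes with 3 counts or fewer in each library got no ratio. The authors' edgeR cutoffs could not be applied, since 1 library per genotype gives no dispersion. Similar transcripts were searched with blastn 2.17.0 (80% identity over 100 bp for similar, 95% over 150 bp for near-identical).

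All 10 ligands, 5 further CXC ligands and 8 receptors were to be named, with up to 4 genes of each other list and up to 4 neighbours, by distance of the ratio from 1. Members and lists were chosen with earlier results of these data known. Alternatives were filters of 1 and 50 counts, other scalings (total counts, upper quartile, size factors of DESeq2 1.42.0), a 2-fold limit, a 99% interval, the point ratio and prior counts of 0.125 and 5.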

Additional observations from a re-analysis of the deposited data

How the results depend on the processing

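The 27 ratios of 9 ligands under 3 other scalings all lay within the main counting intervals, with 0 reversed. Whether the *Cxcl3* interval holds 1 nonetheless depends on the scaling. The single ligand past 1.5-fold, *Cxcl11*, was lost with a 2-fold limit (0 ligands), a 99% interval (0) and a filter of 50 counts (0). With the point ratio in place of the interval 3 ligands passed, 2 of them lower. With 50 counts 3 ligands had a lower point ratio, against 5. Over all genes 294 passed 1.5-fold, 155 lower and 139 higher. These became 104 (59 and 45) with a 2-fold limit, 169 (95 and 74) with a 99% interval, 2415 (1230 and 1185) with the point ratio and 165 (97 and 68) with 50 counts, where fewer genes were tested. The median log2 ratio of the ligands ranged from -0.41 (1 count) to -0.10 (50 counts). Total counts moved the median of all genes to 0.03. No paired analysis was possible because each genotype has 1 library, and no replicate could be left out.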

Other observations

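Of the 10 CXC ligand genes, 7 lie on chromosome 5 in a pair of clusters. The first spans 147 kb and holds *Cxcl5*, *Cxcl3*, *Cxcl1* and *Cxcl2*, with *Ppbp* and *Pf4* between them. The second spans 44.1 kb and holds *Cxcl9*, *Cxcl10* and *Cxcl11*. Within 200 kb of the first cluster 17 other genes are annotated, of which 3 had at least 10 counts over both libraries. Near the second 17 are annotated and 7 were tested. Of these 10 tested neighbours 0 passed 1.5-fold with the whole interval, beside 0.959% higher and 1.07% lower among all genes tested. The 4 ratios farthest from 1 rested on few reads, and each interval held 1. The pseudogene *Gm15710* had 23 WT and 39 FRβ KO counts (ratio 1.58, 0.922 to 2.78), *Ppef2* 6 and 10 (ratio 1.56, 0.512 to 5.21), *Ppbp* 43 and 31 (ratio 0.673, 0.410 to 1.09), and *Mthfd2l*, encoding a mitochondrial folate enzyme, 25 and 36 (ratio 1.34, 0.785 to 2.34). *Sdad1*, the annotated gene next to *Cxcl9* among those tested, was chosen after its values were seen and had 587 and 651 counts (ratio 1.04, 0.925 to 1.16). *Scarb2*, encoding a lysosomal membrane protein and also chosen after its values were seen, was the tested neighbour with an interval above 1 (7487 and 8528 counts, ratio 1.06, 1.03 to 1.10), and *Pf4* the one with an interval below it.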
